A study of Mus musculus with 19 samples.

Results

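The solute carrier genes encode the membrane proteins that move amino acids, transmitters, ions, sugars, vitamins, metals and metabolites across the plasma membrane and the membranes of organelles. They were taken as every gene whose symbol in the probe annotation starts with Slc and a digit, leaving out Slc1a2, Slc1a3, Slc2a1, Slc2a3, Slc16a1 and Slc16a3. This gave 341 of the 18193 genes with 1 symbol, of which 224 passed a filter on dim signal and were tested, among 12148 tested genes in all. The other 117 were not tested. Of the 341 genes, 7 are named after a carrier and are no transporters, and 5 of these are among the 224 tested. Counts of carriers below include them. The genes were measured on 19 Affymetrix Mouse430+2 arrays of mouse cerebellar cells, all C57BL/6 and all collected from the cerebellum without culture or treatment. NEP tumor (4 arrays) holds tumor cells of Nestin-CreERT2/Ptch1C/C mice, and GNP tumor (4 arrays) those of Math1-CreERT2/Ptch1C/C mice, in which an inducible Cre driven by Nestin or by Math1 acts on Ptch1. NEP (4 arrays) are neuronal progenitors collected as Nestin+, GNP (4 arrays) are those collected as Math1+, and NSC (3 arrays) are cerebellar progenitors collected as CD133+ and Lin-. Age, sex and pooling of mice are missing from the labels, which also do not state whether arrays within a group are different animals, so p-values measure only the spread between these arrays.

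Solute carriers work by coupling or exchanging: many draw a substrate uphill with the sodium or proton gradient, others swap one solute for another or let it run down its own gradient. In the developing cerebellum, glia and radial glia-like cells are known for carriers that clear transmitters, buffer pH and pass glutamine to neurons, while granule neurons and their progenitors are known for the vesicular carriers that load glutamate into synaptic vesicles. Inner mitochondrial membrane carriers, nucleotide sugar carriers of the Golgi and metal carriers serve most cells.

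The genes used to label the groups matched the labels only in part. Nes (Nestin) had log2 signals of 5.17 to 6.84 in NEP tumor, 5.12 to 5.38 in GNP tumor, 5.65 to 6.06 in NEP, 3.23 to 4.01 in GNP and 4.34 to 4.56 in NSC. Atoh1, the mouse Math1 gene, lay between 2.38 and 5.67 in NEP and between 8.77 and 8.96 in GNP, and was also high in NSC, at 8.92 to 8.94. It was higher in NEP tumor (10.31 to 10.67) than in GNP tumor (9.38 to 9.45). Prom1, which encodes CD133, lay at 8.17 to 8.85 in NEP, against 7.95 to 8.17 in NSC. Ptch1, the targeted gene, gave 11.39 to 11.59 in NEP tumor and 11.18 to 11.24 in GNP tumor, against 10.27 to 10.90 in NEP, 10.17 to 10.38 in GNP and 10.24 to 10.29 in NSC. Whether its probe set lies in the deleted part is not given in the sources used here, so the signal does not check the deletion. NEP and GNP belong to a first run of arrays by the numbers in the titles, and both tumors and NSC to a second. Poly-A spike-ins, added before labelling, averaged 8.82 ± 0.25 in the first run (SD, n = 8) and 6.67 ± 0.28 in the second (n = 11). NEP arrays 1 and 2 stood apart from NEP arrays 3 and 4. Several results are also given with arrays 3 and 4 alone, and values given only over all NEP arrays can rest partly on arrays 1 and 2.

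Carriers were often highest in NEP and seldom lowest there. Of the 224 tested carriers, 114 had their highest group mean in NEP (50.9%, against 30.7% of all tested genes), 35 in NEP tumor, 35 in GNP, 25 in GNP tumor and 15 in NSC. NEP was the lowest group for 38 carriers (17.0%, against 33.7% of all tested genes). The distance between a carrier's highest and lowest group mean had a median of 0.933 on the log2 scale, against 0.816 over all tested genes. It reached at least 4 for 16 carriers and stayed under 0.5 for 44. Spread between arrays of a group was also widest in NEP, where the median SD of a carrier was 0.224, with 0.158 in NEP tumor, 0.122 in GNP tumor, 0.150 in GNP and 0.106 in NSC. The groups ranked alike over all tested genes, with medians of 0.209 in NEP, 0.15 in NEP tumor, 0.101 in GNP tumor, 0.145 in GNP and 0.0966 in NSC. A group mean below the mean of the array medians (2.44 to 2.57 on each array) is called dim here. By that measure 31 of the tested carriers were dim in NEP tumor, 32 in GNP tumor, 15 in NEP, 33 in GNP and 31 in NSC, and a difference from a dim group compares array signals near the lower end of the scale. Members that passed the filter through the 1 group where they are high could hardly fail to differ, so the counts below describe the carriers that passed and are no test of the family.

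**Figure D1:**
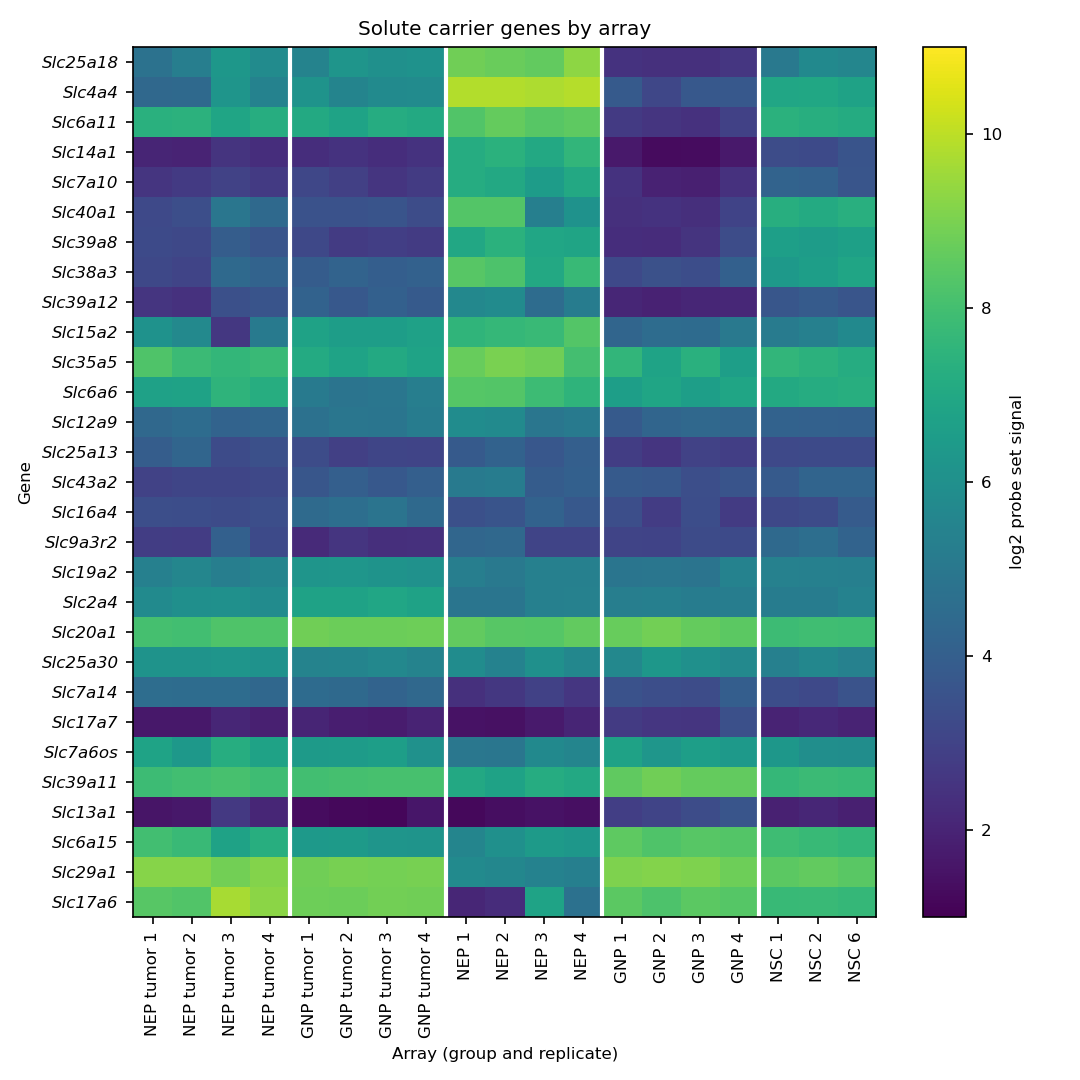
Log2 probe set signal (colour, 1 to 11) of the carriers with the largest differences between NEP and GNP and between NEP tumor and GNP tumor. Rows are genes ordered by NEP minus GNP, columns are the 19 arrays, and white lines separate the groups. Slc25a18 and Slc4a4 are brightest in NEP, Slc17a6 and Slc29a1 are darkest there, and both tumors lie between NEP and GNP for Slc25a18 and Slc4a4.

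The first comparison asked which carriers separate NEP from GNP, both of the first run. Carriers of glial cells stood high in NEP: the bicarbonate carrier Slc4a4, the GABA carrier Slc6a11, the mitochondrial glutamate carrier Slc25a18 and the urea carrier Slc14a1 differed by 5.79 to 6.41 on the log2 scale, from low or dim signals in GNP. Slc17a6, the vesicular glutamate carrier VGLUT2, and Slc29a1, a nucleoside carrier, were the carriers furthest below GNP. In all, 110 of 224 tested carriers were higher in NEP (49.1%, against 29.6% of all tested genes) and 42 were lower (18.8%, against 39.9%), at an adjusted p below 0.05 in limma, where 69.5% of all tested genes were called in either direction. Past a 2-fold change stood 67 higher carriers and 7 lower ones, together 33.0% of the carriers, against 23.6% of all tested genes. The median difference of the carriers was 0.26, and that of all tested genes was -0.11. After a second quantile normalization 95 carriers were higher and 64 lower, so that 59.7% of the called carriers were higher in place of 72.4%. All tested genes shifted the same way under that setting, with 26.4% higher and 47% lower.

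Markers of several cell types also differed between these arrays, and whether they come from the NEP cells themselves or from other cells is not known here. The median of 14 astrocyte and Bergmann glia markers lay between 10.09 and 10.65 on the NEP arrays, against 3.04 to 4.04 on the GNP arrays. The median of 11 oligodendrocyte lineage markers was 6.58 to 8.92 in NEP and 2.65 to 3.09 in GNP. For 14 microglia and macrophage markers, NEP arrays 1 to 4 gave medians of 8.77, 8.88, 3.64 and 2.03, against 1.80 to 2.09 in GNP, where 11 of the 14 were below the array median on every array. For pericytes, fibroblasts and meninges the medians were 8.64, 8.65, 5.16 and 4.94 in NEP, array 1 to 4, against 2.18 to 3.01 in GNP. The part of these cells in the carrier results was not tested, and in bulk samples a change in the number of cells of a type and a change in RNA per cell cannot be told apart.

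The class counts below stand beside 29.6% higher and 39.9% lower of all tested genes, and 49.1% and 18.8% of all tested carriers. Some classes lie near the shares of all carriers, and no class was tested as such. Among carriers of transmitters and osmolytes, 6 of 11 rose in NEP and 3 fell, with a median of 0.42. Slc6a11, which takes up GABA into glia, had log2 signals of 8.29, 8.65, 8.42 and 8.51 on the NEP arrays, against 2.70, 2.53, 2.42 and 2.95 on the GNP arrays. All NEP arrays lay far above all GNP arrays, and the values within each group were close. The difference was 5.82, SE 0.13, adjusted p = 7.87e-16. Slc6a9, the glycine carrier GlyT1 of glia, was higher by 4.20, SE 0.12, adjusted p = 7.45e-15, at 7.38 to 7.69 in NEP against 3.24 to 3.48 in GNP. Slc6a6, which takes up taurine, was higher by 1.27, SE 0.19, adjusted p = 1.63e-05.

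Both vesicular glutamate carriers were lower in NEP, Slc17a7 from low signals in GNP, while Slc17a9 (vesicular nucleotides, -0.13) and Slc30a3 (vesicular zinc, -0.08) were not called. Slc17a6, which loads glutamate into synaptic vesicles, had signals of 2.09, 2.27, 6.82 and 4.72 on NEP arrays 1 to 4, against 8.49, 8.20, 8.47 and 8.38 on the GNP arrays. Every NEP array lay below every GNP array, arrays 1 and 2 at the lower end of the scale and arrays 3 and 4 well above them. The difference was -4.41, SE 0.71, adjusted p = 3.49e-05, and -2.62 with NEP arrays 3 and 4 alone, adjusted p = 5.33e-05. The same NEP arrays gave medians of 6.59, 6.42, 8.43 and 8.0 for markers of differentiating neurons, against 10.16 to 10.22 in GNP, and their part in the result was not tested. Slc17a7, the vesicular glutamate carrier VGLUT1 of mature granule neurons, was also lower in NEP, by -1.15, SE 0.17, adjusted p = 1.67e-05, with 1.43 to 2.05 in NEP, where it was dim, against 2.56 to 3.43 in GNP. Slc32a1, which loads GABA and glycine into vesicles, and Slc6a5, the neuronal glycine carrier, were not tested, with no array above 2.31 and 1.99.

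Slc25a18 and Slc17a6 had the largest difference in each direction, and the stretch around a listed start of each gene is shown so that both can be read beside the values. The windows hold 300 bases, 250 before and 50 after the first start listed for the gene in RefSeq's promoter table on GRCm38.p6, on the strand of the gene. For Slc25a18 that start lies inside the gene's extent in RefSeq, downstream of its first base, and for Slc17a6 it is the first base. Capitals mark CAGATG or CAGCTG, E-box motifs of the kind bound by Math1 and related factors, searched on both strands. The window of Slc25a18, chr6:120773518-120773817 on the plus strand, holds 1 CAGATG, and the window of Slc17a6, chr7:51621580-51621879 on the plus strand, holds neither motif.
Slc25a18: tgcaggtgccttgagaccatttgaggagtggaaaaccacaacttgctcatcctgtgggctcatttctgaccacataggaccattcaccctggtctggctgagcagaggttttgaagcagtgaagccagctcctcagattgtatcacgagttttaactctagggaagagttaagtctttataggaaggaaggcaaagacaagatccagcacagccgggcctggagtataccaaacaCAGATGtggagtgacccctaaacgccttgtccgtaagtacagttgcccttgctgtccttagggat
Slc17a6: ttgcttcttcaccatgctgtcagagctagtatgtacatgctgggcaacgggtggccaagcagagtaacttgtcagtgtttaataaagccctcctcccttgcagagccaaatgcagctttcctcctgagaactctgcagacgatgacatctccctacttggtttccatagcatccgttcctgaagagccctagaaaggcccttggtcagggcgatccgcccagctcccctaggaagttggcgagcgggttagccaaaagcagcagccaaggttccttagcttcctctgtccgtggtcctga
Over all 27025 genes with such a window, 17.2% held CAGATG and 16.1% held CAGCTG. Of the 176 tested carriers with a window, 15.9% held CAGATG and 13.1% held CAGCTG. Among the 91 carriers with a window that were higher in NEP these shares were 14.3% and 11%, and among the 30 that were lower they were 23.3% and 16.7%. A match describes the letters of the window and no binding was measured.

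Among amino acid carriers, 16 of 33 rose in NEP and 7 fell, with a median of 0.31. The largest rises were those of Slc7a10, Slc38a3, the imino acid carrier Slc6a20a (4.29, or 1.76 with NEP arrays 3 and 4 alone) and the glutamate carrier Slc1a1 (3.81, or 2.80). Slc7a10, which exchanges glycine, alanine and D-serine, had 7.18, 7.02, 6.54 and 7.04 on the NEP arrays, against a dim 2.46, 1.96, 1.88 and 2.41 on the GNP arrays, a difference of 4.76, SE 0.17, adjusted p = 2.37e-13. Slc38a3, the glutamine carrier SNAT3 of astrocytes, had 8.39, 8.20, 7.04 and 7.74 in NEP, against 3.19, 3.49, 3.37 and 4.05 in GNP, a difference of 4.32, SE 0.31, adjusted p = 2.20e-09. No array of either gene crossed between the groups. Slc1a4, which carries serine and alanine, was higher by 2.26, SE 0.13, adjusted p = 1.51e-10. Slc38a1, a glutamine carrier of neurons and glia, and Slc7a5 with its partner chain Slc3a2, which together form the large neutral amino acid exchanger LAT1, differed by 0.46, 0.45 and 0.62, and each was called. On the other side, Slc6a15, a neutral amino acid carrier of neurons, had 5.57, 6.00, 6.45 and 6.30 in NEP, against 8.51, 8.25, 8.42 and 8.33 in GNP. The groups did not overlap, and the difference was -2.30, SE 0.21, adjusted p = 6.59e-08. Slc7a14, a lysosomal member of the cationic amino acid family, was lower by -0.93, SE 0.14, adjusted p = 1.63e-05. Slc1a6, the glutamate carrier of Purkinje cells, was not tested and did not exceed 2.40 on any array.

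Carriers of inorganic ions rose in 15 of 26 cases and fell in 5, with a median of 0.84. Slc4a4, which brings sodium and bicarbonate into astrocytes and so sets their pH, had 9.86, 9.84, 9.75 and 9.89 on the NEP arrays, against 3.83, 3.12, 3.75 and 3.74 on the GNP arrays. The NEP arrays lay close to each other and far above GNP. The difference was 6.22, SE 0.30, adjusted p = 8.74e-12. Slc12a2, the chloride importer NKCC1, was higher by 0.26, SE 0.09, adjusted p = 0.0173, with overlapping groups, at 9.84 to 10.29 in NEP against 9.70 to 10.00 in GNP. That call ended without NEP array 1 (0.19) or GNP array 4 (0.21) and was absent over the mean of its probe sets (0.06), with NEP arrays 3 and 4 alone (0.14), and with the most variable probe set, where the value turned (-0.17, adjusted p = 0.533). Slc12a5, the chloride exporter KCC2 of mature neurons, was dim in both groups, at 2.35 ± 0.22 in NEP and 2.32 ± 0.23 in GNP (SD, n = 4 each). Slc24a2, a calcium exchanger of neurons, was lower by -0.73, SE 0.17, adjusted p = 0.00141, and dim in NEP.

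Of 13 tested carriers of organic cations, organic anions, peptides and urea, 12 rose in NEP and 0 fell, with a median of 1.24. Slc14a1, the urea channel-like carrier UT-B, had 7.21, 7.37, 7.02 and 7.59 in NEP, against a dim 1.69, 1.29, 1.34 and 1.69 in GNP. These groups did not approach each other. The difference was 5.79, SE 0.14, adjusted p = 1.37e-15. Slc15a2, which takes up di- and tripeptides, had 7.55 to 8.33 in NEP and 4.28 to 5.04 in GNP, with means of 7.83 ± 0.35 and 4.60 ± 0.32 (SD, n = 4 each). Of 10 carriers of vitamins, choline and haem, 8 rose and 0 fell, with a median of 0.51. Slc46a1, the proton-coupled folate carrier, was higher by 3.15, SE 0.12, adjusted p = 6.25e-13. Slc19a1, the reduced folate carrier, differed by 0.71, SE 0.20, adjusted p = 0.00477, with overlapping groups, and was not called with NEP arrays 3 and 4 alone (0.26). With those arrays alone, 9 of the 13 and 5 of the 10 were called higher, where 27.1% of all tested genes were.

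Metal carriers rose in 14 of 27 cases and fell in 3, with a median of 0.22. Slc39a8, which imports zinc and manganese, had 7.0, 7.39, 6.91 and 6.84 in NEP, against 2.30, 2.28, 2.49 and 3.33 in GNP, with no overlap and a difference of 4.43, SE 0.22, adjusted p = 1.09e-11. Slc39a11, a zinc carrier, was lower at 6.75 to 7.19 in NEP against 8.56 to 8.85 in GNP, by -1.65, SE 0.09, adjusted p = 6.31e-11. Slc30a3, which fills synaptic vesicles with zinc, was not called and stood at 3.60 ± 0.16 in NEP and 3.68 ± 0.27 in GNP (SD, n = 4 each). Carboxylate, lipid, bile acid and thyroid hormone carriers rose in 5 of 12 cases and fell in 2, with a median of 0.31. Slc13a5, which takes up citrate, was higher by 3.64, SE 0.11, adjusted p = 9.70e-15, while Slc13a1, a sulfate carrier of the same family, was lower by -1.84, SE 0.20, adjusted p = 4.47e-07, and dim in NEP.

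Mitochondrial carriers were the largest class and the most evenly split, with 11 of 38 higher and 10 lower and a median of -0.06, a balance that turned to 8 higher and 14 lower after a second quantile normalization. Slc25a18, which carries glutamate into mitochondria, had 8.84, 8.73, 8.58 and 9.31 on the NEP arrays, against a dim 2.45, 2.38, 2.39 and 2.60 on the GNP arrays. This was the largest difference of any carrier in this comparison, 6.41, SE 0.26, adjusted p = 8.76e-13, and the groups lay far apart. Slc25a22, the other mitochondrial glutamate carrier, was lower instead, by -0.82, SE 0.15, adjusted p = 9.40e-05, at 4.21 to 5.02 in NEP against 5.32 to 5.70 in GNP. Slc25a1, which exports citrate from mitochondria, was higher by 0.67, SE 0.13, adjusted p = 0.000256. Slc25a5, an adenine nucleotide carrier, stood at 11.85 ± 0.048 in NEP and 11.92 ± 0.052 in GNP (SD, n = 4 each) and was not called.

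Nucleoside, nucleotide sugar and acetyl-CoA carriers rose in 10 of 18 cases and fell in 3, with a median of 0.40. The 3 that fell were all of the Slc29 family: Slc29a1, Slc29a2 (-0.52) and Slc29a4 (-0.78), while Slc29a3 rose (1.5). With NEP arrays 3 and 4 alone, Slc29a2 was not called (-0.22) and the rise of Slc29a3 was 0.83. Slc29a1, the equilibrative nucleoside carrier ENT1, had 5.79, 5.61, 5.43 and 5.32 in NEP against 9.05, 9.14, 9.05 and 8.79 in GNP. No NEP array came near the GNP arrays, and the difference was -3.47, SE 0.10, adjusted p = 1.47e-14. Slc35b4, a nucleotide sugar carrier, was higher by 1.64, SE 0.14, adjusted p = 3.41e-08. Sugar carriers moved little, with 3 of 14 higher and 2 lower and a median of 0.04, and 3 higher and 5 lower after a second quantile normalization. Slc2a12, a glucose carrier, was higher by 1.57, SE 0.19, adjusted p = 1.28e-06, or by 1.03 after that normalization, and Slc2a8, an intracellular glucose carrier, was not called, at 4.30 ± 0.34 in NEP and 4.04 ± 0.18 in GNP (SD, n = 4 each). Slc5a2, a sodium-glucose carrier of the kidney, had overlapping groups and a difference of -0.39, adjusted p = 0.0184, that was not called without NEP array 1 (-0.28), GNP array 1 (-0.34) or GNP array 4 (-0.32). Of 17 carriers of other or unassigned substrates, 9 rose and 5 fell, or 7 and 7 after a second quantile normalization. Slc35f1, whose substrate is not given here, was higher by 4.23, SE 0.20, adjusted p = 9.65e-12. Slc9a3r1, a scaffold named after a sodium-proton exchanger and itself no transporter, was higher by 3.75, SE 0.15, adjusted p = 9.66e-13.

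**Figure D2:**
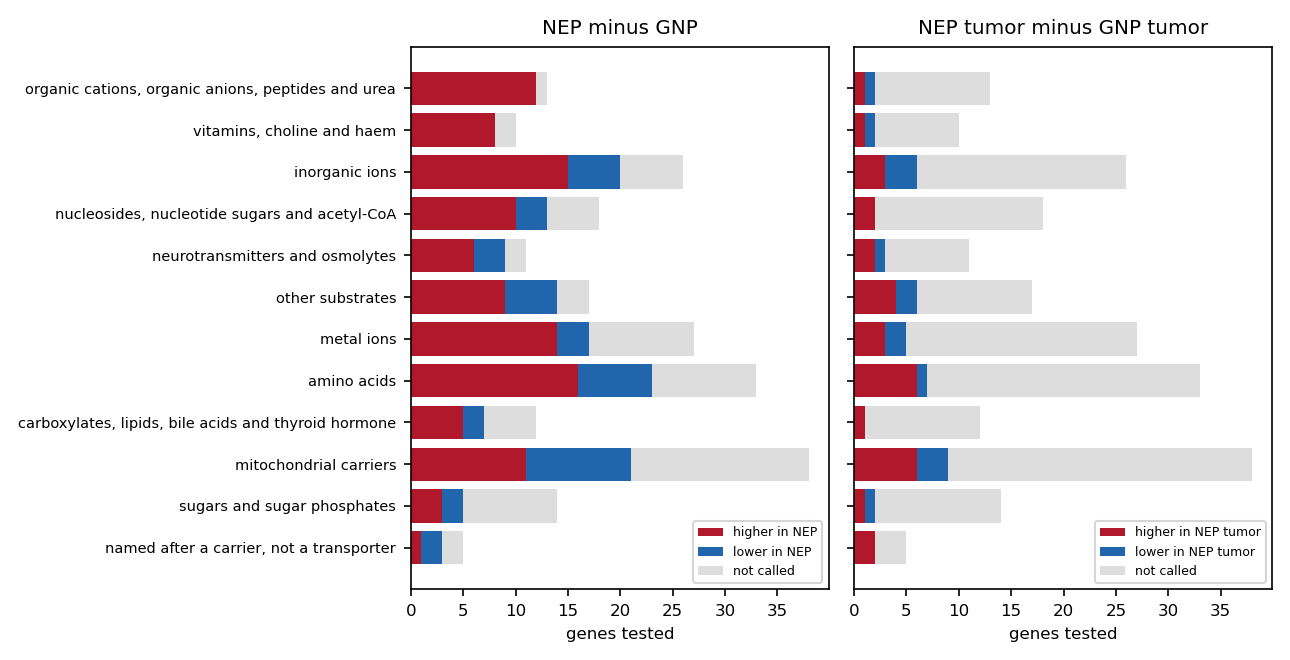
Number of tested carriers of each substrate class that were called higher, lower or not called, for NEP minus GNP (left) and NEP tumor minus GNP tumor (right). Bars run from 0 and count genes. Of all tested genes 29.6% are higher and 39.9% lower in NEP, and 15.5% and 8.1% in NEP tumor. In the left panel 12 of 13 carriers of organic cations, organic anions, peptides and urea are higher in NEP and mitochondrial carriers split 11 to 10, while in the right panel most genes of every class are not called. After a second quantile normalization mitochondrial carriers are higher in 8 and lower in 14 cases in NEP.

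Averaging all probe sets of a gene in place of the one with the highest mean kept these directions but gave smaller differences, 3.80 for Slc4a4, 2.95 for Slc6a11, 2.52 for Slc39a8, 2.35 for Slc38a3, 2.61 for Slc35f1, 2.18 for Slc13a5 and 0.64 for Slc6a6. Of the 37 calls named by rule in this comparison, 34 held without each array in turn.

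Carriers also divided the NEP arrays among themselves. Slc6a13, a GABA and taurine carrier of the meninges, had 8.49, 8.45, 3.47 and 2.20 on NEP arrays 1 to 4. Slc6a20a, a carrier of proline and related imino acids, had 8.34, 8.57, 3.76 and 3.02 on the same arrays. On both genes arrays 1 and 2 were high and arrays 3 and 4 low, as were the pericyte, fibroblast and meningeal markers given above. Slc11a1, the phagosomal metal carrier of macrophages, had 5.69, 5.23, 2.50 and 2.05 on NEP arrays 1 to 4, against 2.25 to 2.49 in GNP, with arrays 1 and 2 apart as in the microglia and macrophage markers. Its difference of 1.54, SE 0.57, adjusted p = 0.0235, was -0.05 with NEP arrays 3 and 4 alone and was not called without NEP array 1 (0.93) or NEP array 2 (1.09). Slc7a11, the cystine-glutamate exchanger, had 4.54, 5.22, 2.59 and 2.05 on NEP arrays 1 to 4, against a dim 1.40 to 1.85 in GNP. Its difference of 2.01, SE 0.47, adjusted p = 0.00117, shrank to 0.73 on NEP arrays 3 and 4 alone. Slc40a1, ferroportin, the iron exporter, had 8.32, 8.31, 5.33 and 6.10 in NEP, against 2.39, 2.47, 2.36 and 3.02 in GNP. Here arrays 3 and 4 were lower than 1 and 2 and still above every GNP array, and the difference over all arrays was 4.45, SE 0.53, adjusted p = 1.48e-06. With NEP arrays 3 and 4 alone the difference of Slc40a1 was 3.15. The part of these other cells was not tested.

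With NEP arrays 3 and 4 alone, 95 of the 110 carriers called higher than GNP were still called higher and 15 were not, and 33 of the 42 called lower were still called lower and 9 were not. A further 4 became higher and 6 lower. Over all tested genes 27.1% were higher and 33.2% lower with those arrays, against 29.6% and 39.9% with all arrays. The differences of Slc14a1 and Slc4a4 were as large without arrays 1 and 2, at 5.80 and 6.21.

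**Figure D3:**
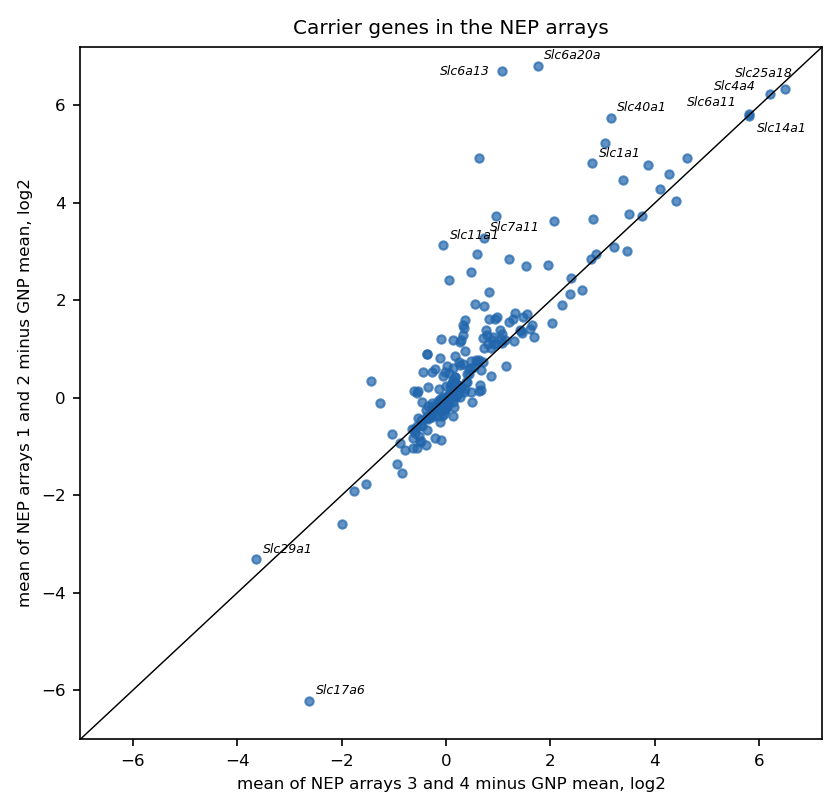
Each point is a tested carrier. The horizontal axis gives the mean of NEP arrays 3 and 4 minus the GNP mean and the vertical axis that of NEP arrays 1 and 2 minus the same GNP mean, both in log2, and the line marks equality. Slc14a1 (5.80 and 5.79) lies on the line, Slc11a1 (-0.05 and 3.13) far above it, and Slc17a6 (-2.62 and -6.21) far below it.

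The second comparison set the tumors side by side, within the second run. NEP tumor and GNP tumor differed in few carriers and by small amounts, with the taurine carrier Slc6a6 as the main one higher in NEP tumor and the peptide carrier Slc15a2 lower. Of 224 tested carriers, 32 were higher in NEP tumor (14.3%, against 15.5% of all tested genes) and 15 were lower (6.7%, against 8.1%, and 23.6% either way), shares near those of all genes. After a second quantile normalization 20 were higher and 20 lower, where 10.9% and 10% of all tested genes were. Past a 2-fold change were 2 higher and 2 lower, or 1.79% of the carriers, against 2.53% of all tested genes. The median difference was 0.05, as it was over all tested genes. Without GNP tumor array 1 the count of higher carriers was 18, and without GNP tumor array 2 it was 21, where 11.2% and 12.6% of all tested genes were higher. NEP tumor arrays 3 and 4, which had more of the astrocyte and Bergmann glia markers (7.88 and 7.58, against 6.38 and 6.32 on arrays 1 and 2, and 7.43 to 7.6 in GNP tumor), gave 24 higher and 12 lower when used alone, a setting chosen after seeing the data. Of all tested genes 10.6% were higher and 6.21% lower in that setting. Other marker lists also set the tumors apart on every array, with medians of 3.59 to 4.82 in NEP tumor against 5.06 to 5.20 in GNP tumor for microglia and macrophages, 2.91 to 3.93 against 2.09 to 2.50 for the GABAergic and Purkinje lineage, and 9.91 to 10.31 against 9.38 to 9.45 for granule neuron progenitors. Their part in the carrier results was not tested.

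Slc6a6, which takes up taurine, had 6.74, 6.78, 7.51 and 7.24 on the NEP tumor arrays, against 5.10, 4.83, 4.92 and 5.26 on the GNP tumor arrays. The groups were well apart, with a difference of 2.04, SE 0.19, adjusted p = 1.85e-06, and of 1.02 when all its probe sets were averaged. Slc6a15, a neutral amino acid carrier of neurons, had 7.98, 7.76, 6.77 and 7.28 in NEP tumor, against 6.39, 6.45, 6.20 and 6.18 in GNP tumor. NEP tumor was higher on every array, arrays 1 and 2 most, by 1.14 on average, SE 0.21, adjusted p = 0.00113, and by 0.72 with NEP tumor arrays 3 and 4 alone. Slc35a5, of the nucleotide sugar carriers, was higher by 0.90, SE 0.22, adjusted p = 0.00699, and Slc25a30, a mitochondrial carrier, by 0.62, SE 0.13, adjusted p = 0.00326. Over all probe sets these were 0.46 and 0.29, and Slc35a5 was not called with NEP tumor arrays 3 and 4 alone (0.75). Slc7a5 and Slc38a1, both carriers of neutral amino acids, were each higher by 0.34, and Slc38a1 was not called without NEP tumor array 3 (0.32), NEP tumor array 4 (0.32), or GNP tumor array 1 (0.33), 2 (0.33) or 3 (0.31). Slc25a5, the adenine nucleotide carrier, was higher by 0.30, SE 0.05, adjusted p = 0.000821, and by 0.75 with its most variable probe set. Slc12a5, the neuronal chloride exporter, was higher by 0.56, SE 0.16, adjusted p = 0.0165, and was not called without NEP tumor array 4 (0.45) or GNP tumor array 4 (0.50).

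Lower in NEP tumor was Slc15a2, which takes up small peptides, with 6.08, 5.69, 2.63 and 5.09 on NEP tumor arrays 1 to 4, against 6.76, 6.56, 6.55 and 6.74 in GNP tumor. All 4 NEP tumor arrays lay below GNP tumor, and array 3 lay far below the other three. The difference was -1.78, SE 0.49, adjusted p = 0.0155. It was -1.04 without NEP tumor array 3, and -0.41 and not called with the most variable probe set. Fitted on the tumor arrays alone the same difference had an adjusted p of 0.0542 in limma. Slc2a4, the insulin-regulated glucose carrier GLUT4, had 5.79, 5.97, 6.00 and 5.84 in NEP tumor, against 6.78, 6.78, 6.93 and 6.77 in GNP tumor, a difference of -0.92, SE 0.11, adjusted p = 2.61e-05. Its groups were narrow and did not overlap. Slc16a4, of the monocarboxylate carrier family, differed by -1.21, SE 0.19, adjusted p = 0.000245, and by -0.49 over all probe sets. Slc19a2, the thiamine carrier, differed by -0.75, SE 0.12, adjusted p = 0.000245. Slc20a1, a phosphate carrier, differed by -0.65, SE 0.09, adjusted p = 6.33e-05, but by -0.12 and without a call with the most variable probe set. Slc39a12, a zinc carrier of astrocytes, had 2.55, 2.44, 3.45 and 3.61 in NEP tumor, against 4.14, 3.76, 4.05 and 3.82 in GNP tumor. Its difference of -0.93, SE 0.26, adjusted p = 0.0164, was not called without NEP tumor array 1 (-0.78) or 2 (-0.74) or with arrays 3 and 4 alone (-0.41), and was -0.43 over all probe sets and -0.46 with array weights. Slc12a2 was lower by -0.41 with its brightest probe set. Its difference was 0.50 and not called with its most variable one (adjusted p = 0.115 in limma), and 0.03 and not called over the mean of its probe sets.

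Of the 27 calls named by rule between the tumors, 16 held without each array in turn. The 11 others were Slc38a1, Slc12a5 and Slc39a12, given above, and 8 more. Slc39a8, the zinc and manganese carrier (0.64), was lost without NEP tumor array 3 (0.48) or 4 (0.59), or GNP tumor array 2 (0.59), 3 (0.63) or 4 (0.59). Slc9a3r2, a scaffold and no transporter (0.86), was lost without NEP tumor array 3 (0.58) or 4 (0.86), or any GNP tumor array (0.81, 0.92, 0.86 and 0.87). Slc13a1, the sulfate carrier (0.66), was lost without NEP tumor array 3 (0.44) or 4 (0.63), or GNP tumor array 2 (0.62) or 3 (0.61). Slc43a2, a carrier of large neutral amino acids (-0.78), was lost without NEP tumor array 1 (-0.75), or GNP tumor array 2 (-0.73) or 4 (-0.73). Slc12a9, an orphan relative of the chloride carriers (-0.59), was also lost over the mean of its probe sets (-0.33) and without NEP tumor array 3 (-0.53) or 4 (-0.56), or GNP tumor array 2 (-0.59) or 4 (-0.50). Slc6a8, the creatine carrier (-0.37), was lost without NEP tumor array 1 (-0.24) or GNP tumor array 4 (-0.31). The peptide and histidine carrier Slc15a4 (0.41) was lost without NEP tumor array 1 (0.38) or 2 (0.33) or GNP tumor array 1 (0.36), and Slc16a13, of the monocarboxylate carrier family (0.51), without GNP tumor array 1 (0.41).

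The third comparison asked whether the difference between tumors equals that between progenitors, as an interaction: NEP tumor minus GNP tumor, less NEP minus GNP. The widest differences between NEP and GNP were smaller or turned between the tumors. The interaction was negative for 93 of 224 tested carriers (41.5%, against 25.2% of all tested genes) and positive for 43 (19.2%, against 36.7%), where 61.9% of all tested genes were called in either direction. Its median was -0.24 for the carriers and 0.15 for all tested genes. The largest negative values were those of Slc4a4 (-6.93, SE 0.42, adjusted p = 4.62e-10), Slc25a18 (-6.82, SE 0.37, adjusted p = 9.28e-11), Slc14a1 (-5.97, SE 0.20, adjusted p = 2.92e-13) and Slc6a11 (-5.65, SE 0.19, adjusted p = 2.42e-13), the carriers of bicarbonate, mitochondrial glutamate, urea and GABA. The largest positive values were those of Slc17a6 (4.50, SE 1.00, adjusted p = 0.000993), Slc29a1 (3.64, SE 0.15, adjusted p = 1.95e-12), Slc6a15 (3.44, SE 0.30, adjusted p = 5.72e-08) and Slc13a1 (2.50, SE 0.28, adjusted p = 1.23e-06). With NEP arrays 3 and 4 alone, the interaction was negative for 84 carriers and positive for 45, where it was for 24.4% and 32.4% of all tested genes. The value of Slc17a6 was 2.71 with NEP arrays 3 and 4 alone, and those of Slc4a4 and Slc6a11 were -3.95 and -2.84 over all probe sets. Slc12a5 (0.53) and Slc7a11 (-1.69) lost their interaction call when single arrays were left out, Slc12a5 for instance without GNP array 4 (0.43) and Slc7a11 without NEP array 1 (-1.38). With NEP arrays 3 and 4 alone the interaction of Slc7a11 was -0.41, adjusted p = 0.122 in limma. An offset between runs that was equal for the NEP and GNP sides drops out of this value, and an unequal one does not.

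By calls, 121 tested carriers (54%, against 53.1% of all tested genes) differed between NEP and GNP alone and 16 (7.14%, against 7.1%) between the tumors alone. A further 31 (13.8%, against 16.5%) differed in both, 14 of them in the same direction (6.25%, against 7.56%) and 17 in opposite directions (7.59%, against 8.9%). These shares were near those of all genes. Slc6a6 was higher in both NEP tumor (2.04) and NEP (1.27), each against its GNP counterpart, with an interaction of 0.77, SE 0.27, adjusted p = 0.0204, which was not called after a second quantile normalization (0.59) or with the most variable probe set (0.61). Slc6a15 was higher in NEP tumor (1.14) and lower in NEP (-2.30). Slc15a2 was lower in NEP tumor (-1.78) and higher in NEP (3.23), and Slc39a12 likewise (-0.93 and 3.24).

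**Figure D4:**
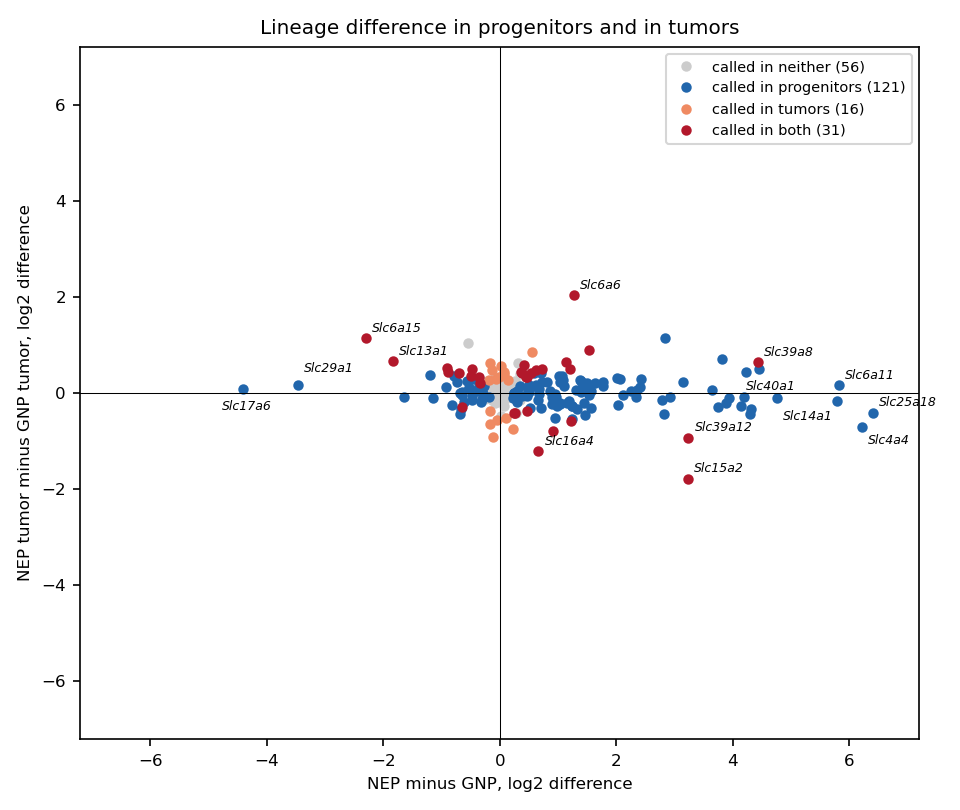
Each point is a tested carrier, with NEP minus GNP on the horizontal axis and NEP tumor minus GNP tumor on the vertical axis, both in log2 on equal scales, coloured by where it was called. Points spread from -4.41 to 6.41 horizontally and from -1.78 to 2.04 vertically.

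Each tumor was then set against its progenitor. These groups lie in different runs, so run and group cannot be told apart in any value of this comparison. In NEP tumor, Slc35f1, Slc14a1, Slc9a3r1 and Slc4a4 stood furthest below NEP (-5.38, -5.08, -5.05 and -4.72) and Slc17a6 (4.94) and Slc29a1 (3.55) furthest above. Of 224 tested carriers, 116 were lower in NEP tumor than in NEP (51.8%, against 32.6% of all tested genes) and 49 higher (21.9%, against 36.2%), where 68.9% of all tested genes were called either way, with a median of -0.38, against 0.05 over all tested genes. Past a 2-fold change stood 65 lower carriers and 12 higher ones, together 34.4% of the carriers, against 24.2% of all tested genes. Against NEP arrays 3 and 4 alone, 99 carriers were lower in NEP tumor and 48 higher, where 30.4% and 31.2% of all tested genes were. In GNP tumor, 49 were higher than in GNP (21.9%, against 18.5%) and 57 lower (25.4%, against 31.4%), where 49.8% of all tested genes were called either way, with a median of -0.05, against -0.08. This balance turned with the scaling. After a second quantile normalization 58 were higher and 48 lower, where 20.9% and 26.2% of all tested genes were. With arrays centred on their medians 39 were higher and 68 lower, where 15.1% and 37.1% of all tested genes were.

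Slc4a4, Slc25a18 and Slc6a11 lay in both tumors between their levels in NEP and GNP. Slc4a4 had 4.38, 4.41, 6.22 and 5.42 in NEP tumor, below the 9.75 to 9.89 of NEP, and 6.13, 5.51, 5.80 and 5.84 in GNP tumor, above the 3.12 to 3.83 of GNP. It differed by -4.72, SE 0.30, adjusted p = 3.88e-10, between NEP tumor and NEP, and by 2.21, SE 0.30, adjusted p = 1.07e-05, between GNP tumor and GNP. Slc25a18 had 4.78 to 6.28 in NEP tumor and 5.49 to 6.21 in GNP tumor, against 8.58 to 9.31 in NEP and 2.38 to 2.60 in GNP. Slc6a11 had 6.88 to 7.42 in NEP tumor and 6.81 to 7.21 in GNP tumor, against 8.29 to 8.65 in NEP and 2.42 to 2.95 in GNP, and the difference between GNP tumor and GNP was 4.4, SE 0.13, adjusted p = 1.04e-13. Astrocyte and Bergmann glia markers had array medians of 6.32 to 7.88 in NEP tumor and 7.43 to 7.6 in GNP tumor, between the 10.09 to 10.65 of NEP and the 3.04 to 4.04 of GNP, and their part in the result was not tested. Over all probe sets, GNP tumor minus GNP was 0.91 for Slc4a4 and 2.28 for Slc6a11, and NEP tumor minus NEP was -3.04 for Slc4a4. Slc14a1 was dim in both tumors, at 1.99 to 2.52 in NEP tumor and 2.29 to 2.48 in GNP tumor.

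Slc66a2, Slc7a3 and Slc24a3 lay in both tumors outside the range of all 3 progenitor groups. Slc66a2, a PQ-loop protein, had 9.15, 9.15, 9.38 and 9.24 in NEP tumor and 8.96, 9.04, 8.98 and 8.84 in GNP tumor, against 5.59 to 5.91 in NEP and 5.73 to 6.16 in GNP. Both tumors were far above both progenitors, and NSC, of the same run as the tumors, had 5.83, 6.04 and 5.91. The differences were 3.51, SE 0.10, adjusted p = 8.15e-15, for NEP tumor and 3.05, SE 0.10, adjusted p = 1.87e-13, for GNP tumor, or 2.04 and 1.59 over all probe sets. Slc7a3, a carrier of cationic amino acids, had 5.26, 5.25, 4.32 and 5.06 in NEP tumor and 4.12 to 4.58 in GNP tumor, against 2.55 to 3.04 in NEP, 2.05 to 3.11 in GNP and 2.26 to 2.56 in NSC. Its level in NEP tumor was 2.21 above that in NEP, SE 0.22, adjusted p = 1.73e-07. Slc24a3, a calcium exchanger that uses potassium, ran the opposite way, with 5.58 to 5.89 in NEP tumor and 5.29 to 5.56 in GNP tumor, against 7.96 to 9.16 in NEP, 7.52 to 7.80 in GNP and 7.43 to 7.59 in NSC. Its difference between GNP tumor and GNP was -2.29, SE 0.19, adjusted p = 2.68e-08.

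Further large differences were named for a single tumor against its progenitor, and the other tumor could differ too. Slc35f1 had its lowest group mean in GNP tumor (2.75), so GNP tumor lay below GNP as well. Slc6a6 had its highest group mean in NEP (8.0), so NEP tumor lay below NEP as well. Slc35f1 and the scaffold Slc9a3r1 were lower in NEP tumor than in NEP by -5.38, SE 0.20, adjusted p = 4.21e-13, and -5.05, SE 0.15, adjusted p = 2.31e-14. Slc17a6 was higher in NEP tumor than in NEP by 4.94, SE 0.71, adjusted p = 1.02e-05, or by 3.14 against NEP arrays 3 and 4 alone, and its levels were 8.29 to 9.70 in NEP tumor and 8.76 to 8.89 in GNP tumor. Slc6a15, Slc13a1 and Slc6a6 were lower in GNP tumor than in GNP by -2.07, -1.88 and -1.70, with adjusted p-values of 4.97e-07, 7.12e-07 and 1.27e-06, and Slc13a1 was dim in both tumors.

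**Figure D5:**
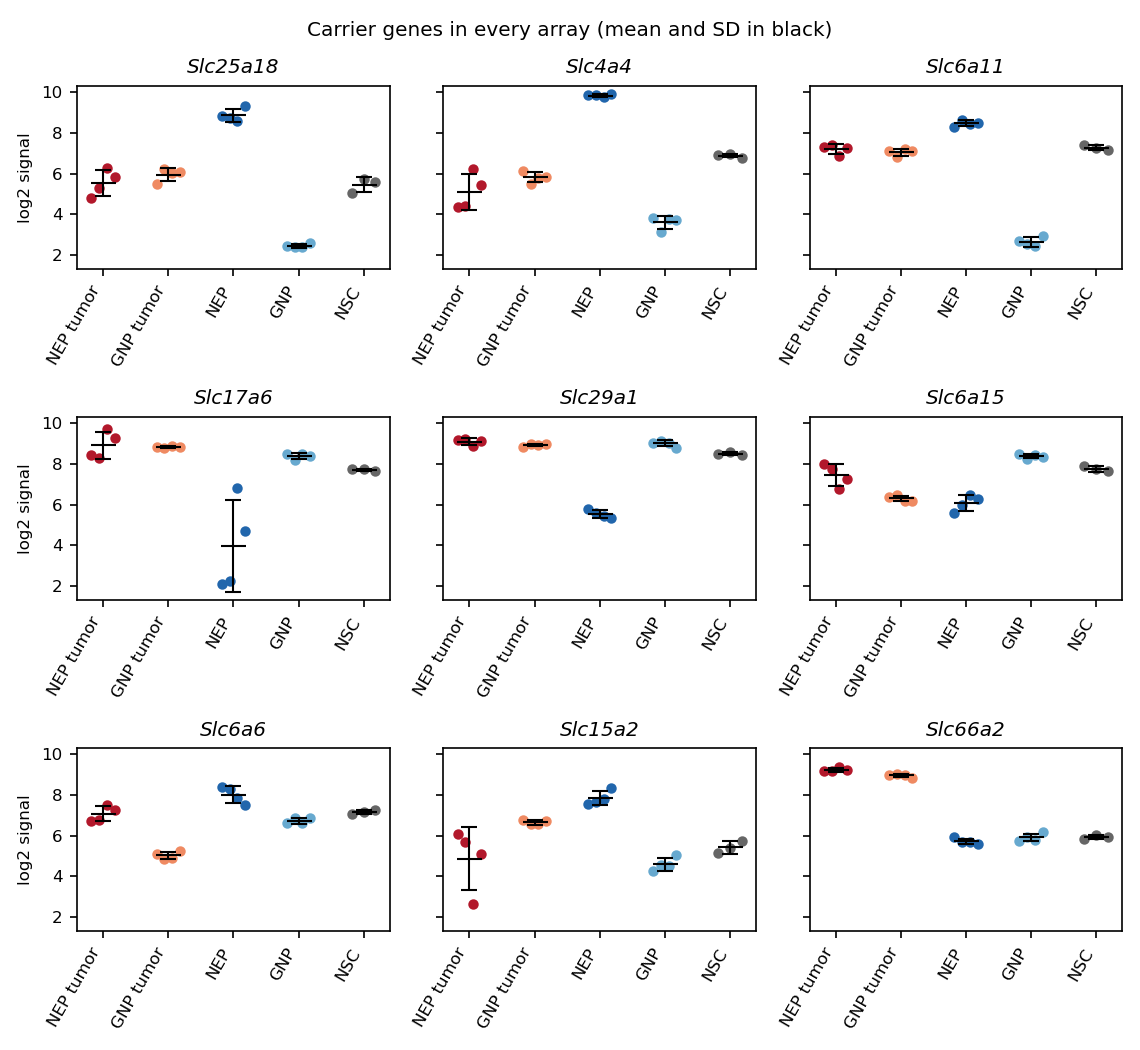
Log2 signal of 9 carriers on every array by group, in the order NEP tumor, GNP tumor, NEP, GNP and NSC, with the group mean and SD in black. The tumors lie between NEP and GNP for Slc25a18 and Slc4a4, Slc17a6 spreads from 2.09 to 6.82 within NEP, Slc15a2 has 1 NEP tumor array at 2.63, and Slc66a2 has 8.84 to 9.38 in the tumors and at most 6.16 elsewhere.

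The last comparisons set the progenitors against NSC, again across runs, so run and group cannot be told apart. NEP lay above NSC in 112 of 224 tested carriers (50%, against 30.9% of all tested genes) and below it in 19 (8.48%, against 27.6%). After a second quantile normalization 41 carriers lay below, where 35.8% of all tested genes did. Either way, 58.4% of all tested genes were called. The median was 0.37, against 0.02 over all tested genes. With NEP arrays 3 and 4 alone, 95 carriers lay above NSC and 26 below, where 28.9% and 23.9% of all tested genes did. Slc14a1 (urea), Slc1a1 (glutamate and cysteine uptake), Slc13a5 (citrate) and Slc25a18 (mitochondrial glutamate) were the furthest above, by 3.92, 3.76, 3.52 and 3.41. Slc1a1 had 8.54, 8.44, 6.25 and 6.72 in NEP, against 3.71, 3.82 and 3.66 in NSC, so that all NEP arrays were higher and arrays 1 and 2 most. Slc17a6, Slc29a1 and Slc6a15 were lower in NEP than in NSC as they were against GNP, by -3.74, -2.97 and -1.68, with adjusted p-values of 0.000492, 2.01e-12 and 1.00e-05. The difference of Slc17a6 was -1.95 with NEP arrays 3 and 4 alone.

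GNP lay above NSC in 45 tested carriers (20.1%, against 23.2% of all tested genes) and below it in 39 (17.4%, against 13.1%), where 36.3% of all tested genes were called either way, with a median of 0.03, against 0.06. Past a 2-fold change were 23 lower and 2 higher, or 11.2% of the carriers, against 7.23% of all tested genes. Slc6a20a, Slc40a1, Slc6a11 and Slc6a13, carriers of imino acids, iron and GABA, were lower in GNP by -5.09, -4.67, -4.63 and -4.25, with adjusted p-values of 0.000629, 1.16e-05, 4.93e-13 and 0.0054. Slc6a20a had a dim 1.33, 1.54, 1.60 and 2.06 in GNP, against 6.78, 6.60 and 6.80 in NSC, and Slc40a1 had 2.36 to 3.02, against 7.11 to 7.31. Both genes were far apart in the 2 groups. Medians per array for the pericyte, fibroblast and meningeal list were 2.18 to 3.01 in GNP and 6.65 to 6.88 in NSC, and for astrocytes and Bergmann glia 3.04 to 4.04 in GNP and 7.12 to 7.22 in NSC, and their part in the result was not tested. Carriers higher in GNP included Slc13a1 (sulfate) by 1.25, the sodium-proton exchanger Slc9a5 by 1.02 and the anion exchanger Slc4a3 by 0.93.

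Some carriers held 1 level across the cerebellum's groups. Slc25a3, the mitochondrial phosphate carrier, had group means between 10.99 in GNP tumor and 11.20 in GNP, and Slc38a2, a neutral amino acid carrier, between 10.68 in GNP tumor and 10.48 in GNP. Slc17a9, the vesicular nucleotide carrier, had the narrowest range, 0.15, with group means of 2.87 to 3.02, close to the array medians (2.44 to 2.57). These were chosen from among the steadiest after their values were seen. Slc30a3, with a range of 0.2 against 0.21 for Slc25a3 and Slc38a2, was not among those chosen. At the edge of the filter, the third highest array of Slc5a10 and Slc14a2 lay 0.012 and 0.018 above its array's median, and that of Slc2a5 and Slc34a2 differed from it by -0.003 and -0.011, which kept them out. None of the 117 untested carriers exceeded 4.02 on any array. Of 26 measured carriers listed as known from cerebellar and neural biology, 23 were tested.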

How the data were processed

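The authors deposited 1 log2 value per probe set and array, made with Affymetrix Expression Console and RMA per the submitters' processing notes. Versions and the log base are not given in the sources used here, and log2 was taken from the values (0.29 to 13.37). Per the labels' protocols, total RNA was amplified and labelled with whole-transcript kits. The mean over all arrays was 3.79, and no 2 arrays of 171 pairs were identical. Their number limits the precision.

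Of 45101 probe sets, 34945 had 1 gene symbol in the platform annotation, 932 several and 9160 none, and 34741 matched RefSeq by gene ID. Each gene took its probe set with the highest mean (172 carriers had more than 1), and was tested if at or above the array median in at least 3 arrays. limma 3.58.1 in R 4.3.3 fitted 5 group means to all 19 arrays, two-sided, with Benjamini-Hochberg adjustment over 12148 genes and calls at adjusted p below 0.05. The script was tested on simulated data. Comparisons that share arrays are not independent.

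Members, substrate classes, marker lists and tests were chosen with earlier results of these data known. Named genes are the measured members of a list of known carriers, the 8 largest called rises and falls between NEP and GNP and between the tumors, the 4 largest elsewhere, the largest of each class, and 2 on each side of the filter. Same-numbered arrays did not vary together (correlations of -0.158 to 0.071), so numbers were not used as pairs. Alternatives changed the probe set, filter, scaling, variance model, weights, block and arrays.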

Additional observations from a re-analysis of the deposited data

Results flagged for a closer look

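Single arrays stood apart from the other 3 of their group for 10 of 276 groups of 4 arrays, over 69 named genes, where chance alone marks about 1 group in 20. Slc6a8, the creatine carrier, had 6.35 on NEP tumor array 1, against 6.89 to 6.91 on the others. Slc24a3, a calcium exchanger, had 5.89 on NEP tumor array 4, against 5.58 to 5.63, and 7.96 on NEP array 3, against 8.98 to 9.16. In GNP tumor, Slc2a4 had 6.93 on array 3, against 6.77 to 6.78, Slc37a3 had 7.51 on array 4, against 7.34 to 7.36, and Slc6a20a had 2.82 on array 1, against 2.28 to 2.35. In GNP, Slc4a4 had 3.12 on array 2, against 3.74 to 3.83, and Slc49a4 had 6.09 on array 2, against 6.29 to 6.31. GNP array 4 had 3.02 for Slc40a1, against 2.36 to 2.47, and 5.43 for Slc19a2, against 4.84 to 4.91.

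The 21 carriers below were named by rule for limma's interaction test, and only carriers called in that test could be listed. Their number is therefore no result, and 61.9% of all tested genes were called in the interaction. Carriers named only for other comparisons were left out, such as Slc15a2 (3.23 between the progenitors and -1.78 between the tumors). For each of the 21, the difference between NEP tumor and GNP tumor departed from that between NEP and GNP. It was lower between the tumors for Slc4a4 (-6.93), Slc25a18 (-6.82), Slc14a1 (-5.97), Slc6a11 (-5.65), Slc38a3 (-4.66), Slc6a9 (-4.27), Slc40a1 (-3.96), Slc1a4 (-2.20), Slc7a11 (-1.69), Slc12a2 (-0.66), Slc25a1 (-0.58) and Slc3a2 (-0.45). It was higher for Slc17a6 (4.50), Slc29a1 (3.64), Slc6a15 (3.44), Slc13a1 (2.50), Slc1a5 (1.59), Slc17a7 (1.04), Slc6a6 (0.77), Slc12a5 (0.53) and Slc25a5 (0.36). The value of Slc1a5 was 0.89 over all probe sets, 0.81 with array weights and 2.48 with NEP arrays 3 and 4 alone, and with NEP tumor arrays 3 and 4 alone it was 1.06 and not called. Slc25a5 moved to 1.01 with its most variable probe set, Slc7a11 to -0.41 and no call with NEP arrays 3 and 4 alone, and Slc25a1 to -0.42 and no call with NEP tumor arrays 3 and 4 alone.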

How the results depend on the processing

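Of the counts of called carriers, 133 kept within 1.5 times under other settings and 17 moved. A filter at the 75th percentile left 117 carriers, so fewer could be called: 60 higher and 20 lower in NEP minus GNP, 23 and 50 in the interaction, 31 and 64 in NEP tumor minus NEP, 64 and 11 in NEP minus NSC, and 36 lower in GNP tumor minus GNP. Over all genes left by that filter the shares were 26.2% and 45.7%, 41.5% and 22.6%, 42% and 29.8%, 29.1% and 35.2%, and 33.6%, in the same order. A second quantile normalization gave 64 lower in NEP minus GNP (47% of all tested genes), 20 higher in NEP tumor minus GNP tumor (10.9%) and 41 lower in NEP minus NSC (35.8%). It set the share of called carriers that were higher at 39.8% in place of 29.7% in NEP tumor minus NEP and 68.5% in place of 85.5% in NEP minus NSC, and moved the median of all genes in NEP minus NSC to -0.11, against 0.02, and in NEP minus GNP to -0.21, against -0.11. Centring arrays on their medians gave 65.3% in place of 53.6% in GNP minus NSC, with a median of all genes of 0.16 there, against 0.06, and of 0.27 in the interaction, against 0.15, and the most variable probe set 78.8% in place of 68.1% between the tumors. Array weights gave 72 and 40 between the tumors, 80 higher in GNP tumor minus GNP, and 72 and 68 in GNP minus NSC. All tested genes were also called more often with weights: 32.1% and 19.8%, 28.2%, and 37.2% and 24.5%, in the same order. The cause of these shifts was not tested.

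Leaving out each array gave 105 to 113 higher and 36 to 44 lower in NEP minus GNP, 18 to 29 and 11 to 15 in NEP tumor minus GNP tumor, 40 to 46 and 85 to 100 in the interaction, 46 to 49 and 110 to 123 in NEP tumor minus NEP, 41 to 48 and 48 to 56 in GNP tumor minus GNP, 98 to 121 and 17 to 21 in NEP minus NSC, and 31 to 39 and 32 to 37 in GNP minus NSC. Over all tested genes the shares were 28.1% to 30.4% higher and 37% to 40.1% lower in NEP minus GNP. Between the tumors they were 11.2% to 15.9% and 6% to 7.46%. Signs turned for Slc12a2 (-0.17 in NEP minus GNP, 0.50 between the tumors and 0.67 in the interaction with its most variable probe set, and 0.03 between the tumors over the mean of its probe sets), Slc6a8 (0.26 between the tumors, most variable probe set) and Slc11a1 (-0.05, NEP arrays 3 and 4 alone). With the replicate number as a block, NEP minus GNP gave 110 and 40, the tumors 26 and 14, the interaction 43 and 94, NEP tumor minus NEP 48 and 113, and GNP tumor minus GNP 48 and 57. Over all tested genes the shares were 29.7% and 39.5%, 14.6% and 7.59%, 36% and 25%, 35.7% and 32.6%, and 18.4% and 30.6%. Of 117 named calls, 54 had another tested probe set of the gene, 42 of these were called the same way and 0 the opposite way.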

Other observations

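Carriers outside the rule for named genes, chosen after their values were seen, showed 2 further patterns. Slc22a23, of the organic ion carrier family, had 8.02, 7.88, 6.79 and 6.94 in NEP, against 3.43 to 3.59 in GNP, and Slc9a9, an endosomal sodium-proton exchanger, had 6.97, 7.21, 4.38 and 5.42 in NEP, against 1.59 to 2.14 in GNP. Slc16a14, of the monocarboxylate carrier family, had 3.33 to 4.13 in NEP tumor and 3.58 to 4.01 in GNP tumor, against 2.06 to 2.36 in NEP, 2.06 to 2.73 in GNP and 2.13 to 2.41 in NSC. Slc8a3, a sodium-calcium exchanger, had 3.55 to 4.90 in NEP tumor and 4.56 to 4.70 in GNP tumor, against 3.17 to 3.45 in NEP, 2.23 to 2.54 in GNP and 2.27 to 2.44 in NSC. Both tumors were above all 3 progenitor groups on every array for these last genes, and tumors and progenitors other than NSC lie in different runs.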
